A study of Mus musculus with 21 samples.

Results

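The genes described here encode 9 enzymes that break down the aromatic amino acids tyrosine and tryptophan. They were chosen by name (Tat, Hpd, Hgd, Gstz1, Fah, Tdo2, Kmo, Kynu and Haao) and all 9 were found among the 46517 genes of the counts table. RNA of the heart was sequenced from 4 control (Notch3 +/+) mice and 3 Notch3-/- mice on the C57BL/6J background, aged 10 to 14 months. The aim was to ask which transcripts differ in hearts without Notch3. The paper names the left ventricle as the source of RNA for its qPCR, and no chamber in its RNA-seq methods. Notch3-/- mice carry a lacZ insertion in the Notch3 locus, no treatment is named for either genotype, and the sex of the sequenced mice was not stated. Each mouse gave 3 technical libraries, and their counts were added up to make each mouse 1 replicate. The summed totals were 3091461, 4638786, 4208205 and 3046326 counts in the controls, against 3828763, 5167869 and 5086740 in the Notch3-/- animals. Such values are listed throughout in the order of control mice 1 to 4 and Notch3-/- mice 1 to 3.

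Tyrosine is degraded by a linear route in which tyrosine aminotransferase (Tat), 4-hydroxyphenylpyruvate dioxygenase (Hpd), homogentisate dioxygenase (Hgd), maleylacetoacetate isomerase (Gstz1) and fumarylacetoacetate hydrolase (Fah) act in turn and yield fumarate and acetoacetate. Tryptophan enters the kynurenine route through tryptophan dioxygenase (Tdo2), and kynurenine monooxygenase (Kmo), kynureninase (Kynu) and 3-hydroxyanthranilate dioxygenase (Haao) carry it towards NAD. Liver is the main site of both routes, and several of the enzymes are also made in kidney or, for the kynurenine route, in macrophages.

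The promoters of some of the members with few or no counts in control hearts (Tat, Hgd, Tdo2) are shown. So are those of the pair with a mean above 10 normalized counts per 1e+06 (CPM) in control hearts (Gstz1, Fah). All of these genes were higher in the same mice. Hpd and Haao were too, and also had few control counts, but their windows are not shown. Each window is 300 bases long, from 250 bases before to 50 bases after the RefSeq gene start in GRCm38.p6, written 5′ to 3′ on the gene's strand. Windows were found for 8 of the 9 members, and Kynu had no entry. The windows are chr8:109990186-109990485 (plus strand) for Tat, chr16:37579903-37580202 (plus strand) for Hgd, chr3:81975679-81975978 (minus strand) for Tdo2, chr12:87146915-87147214 (plus strand) for Gstz1 and chr7:84605893-84606192 (minus strand) for Fah. Capitals mark matches on either strand to any of the motifs searched. A form of the core promoter element found near many start sites, TATAAA, was searched. So was the CCAAT box, a common element of proximal promoters. Besides these, the shorter of the remaining motifs was GTTAAT. The longest motif searched was CAAAGTCCA.
Tat: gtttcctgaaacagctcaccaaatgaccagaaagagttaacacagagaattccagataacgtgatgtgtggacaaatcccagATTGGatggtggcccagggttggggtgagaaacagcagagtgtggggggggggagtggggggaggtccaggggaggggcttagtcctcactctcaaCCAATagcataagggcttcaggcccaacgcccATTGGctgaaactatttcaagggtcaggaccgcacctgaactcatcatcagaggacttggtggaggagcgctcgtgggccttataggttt
Hgd: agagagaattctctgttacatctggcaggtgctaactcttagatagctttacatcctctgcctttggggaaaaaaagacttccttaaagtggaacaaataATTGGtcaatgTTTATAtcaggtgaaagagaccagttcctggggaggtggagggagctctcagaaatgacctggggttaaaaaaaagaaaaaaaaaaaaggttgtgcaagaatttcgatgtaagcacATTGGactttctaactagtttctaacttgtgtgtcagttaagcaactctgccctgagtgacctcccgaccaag
Tdo2: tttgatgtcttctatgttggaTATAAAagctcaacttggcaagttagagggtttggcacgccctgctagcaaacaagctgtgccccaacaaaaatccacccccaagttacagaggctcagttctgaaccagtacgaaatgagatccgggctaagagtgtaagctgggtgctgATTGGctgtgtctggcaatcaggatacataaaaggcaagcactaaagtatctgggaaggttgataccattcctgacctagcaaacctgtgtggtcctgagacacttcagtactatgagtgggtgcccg
Gstz1: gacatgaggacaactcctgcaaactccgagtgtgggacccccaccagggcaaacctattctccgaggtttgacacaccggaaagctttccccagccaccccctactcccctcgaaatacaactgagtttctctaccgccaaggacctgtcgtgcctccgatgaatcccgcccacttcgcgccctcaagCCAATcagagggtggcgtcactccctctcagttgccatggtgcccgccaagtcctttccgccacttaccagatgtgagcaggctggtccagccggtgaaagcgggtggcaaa
Fah: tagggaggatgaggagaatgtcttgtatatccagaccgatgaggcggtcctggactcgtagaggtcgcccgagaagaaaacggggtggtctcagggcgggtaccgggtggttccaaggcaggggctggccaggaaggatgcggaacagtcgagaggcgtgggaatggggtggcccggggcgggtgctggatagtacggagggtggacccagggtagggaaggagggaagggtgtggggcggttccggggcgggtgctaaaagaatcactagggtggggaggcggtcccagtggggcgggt
CCAAT was present in the windows of Tat, Hgd, Tdo2 and Gstz1, 4 of the 8 members with a window, and in 37.4% of all 32851 windows of the same length. TATAAA was found in Hgd and Tdo2, against 13.6% of all windows, and GTTAAT in Haao alone, against 7.1%. Both TATAAA matches lay well before the RefSeq start, not next to it, and that of Hgd was on the opposite strand. The windows of Hpd, Kmo and Haao, which are not shown, held neither CCAAT nor TATAAA. CAAAGTCCA was found in 0 of the 8 and in 0.475% of all windows. In the windows shown no marked match overlaps another. The windows of Gstz1 and Fah held 15 and 19 CpG dinucleotides, those of Tat, Hgd and Tdo2 held 5, 2 and 4, and those of Hpd, Kmo and Haao, not shown, held 7, 7 and 10, where the median over all windows was 7. The RefSeq start lay 474 bases from the outermost annotated start of Tdo2 and 780 bases from that of Fah, so these windows show 1 of several annotated starts. Gstz1 had another window, around a start 10438 bases from its outermost one, which is not shown.

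Notch3, the targeted gene, had 174, 200, 245 and 185 counts in the controls, against 22, 36 and 25 in the Notch3-/- animals. All 3 Notch3-/- mice, mouse 3 included, lay below every control mouse, as their labels state. This was a log2 fold change of -3.16 (SE 0.23, edgeR quasi-likelihood FDR 0.00173 with Benjamini-Hochberg adjustment).

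The mice of the Notch3-/- group were unlike each other for the catabolic enzymes. Notch3-/- mice 1 and 2 lay above every control mouse for 9 of 9 members, and Notch3-/- mouse 3 for 4 (Tat, Hpd, Hgd and Fah), with levels close to those of control mice. Mice 1 and 2 both lay above every control mouse for 10.6% of the 28790 genes with at least 1 count, and all 3 Notch3-/- mice did so for 3.16%. The tests between genotypes below are therefore given with and without Notch3-/- mouse 3. Levels are TMM-normalized counts per 1e+06 counts (CPM), and each ± is an SD.

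Tat, which transfers the amino group of tyrosine and opens the route, had 0, 9, 3 and 0 counts in the controls, against 1148, 3526 and 21 in the Notch3-/- animals. Notch3-/- mice 1 and 2 were far above all other mice, and mouse 3 was above the highest control mouse at a level near it, so the genotypes did not overlap. The level was 0.651 ± 0.895 CPM in control mice (n = 4) and 353 ± 370 CPM in Notch3-/- mice (n = 3). In Notch3-/- mouse 3, 16 of the 21 Tat counts came from 1 of its 3 libraries. Its level relative to the pooled control mice was 4.97 (exact 95% interval 2.34 to 11.1, counting error only).

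Hpd, which makes homogentisate, had 4, 11, 0 and 0 counts in the controls, against 1190, 2254 and 14 in the Notch3-/- animals. Hgd, which opens the aromatic ring of homogentisate, had 0, 3, 1 and 0 counts in the controls, against 343, 1519 and 6 in the Notch3-/- animals. As for Tat, mice 1 and 2 were high, mouse 3 was just above the highest control mouse, and control mouse 2 had the most counts of its group. The level of Hpd was 0.909 ± 1.13 CPM in control mice (n = 4) and 267 ± 241 CPM in Notch3-/- mice (n = 3). That of Hgd was 0.217 ± 0.298 CPM (n = 4) and 138 ± 164 CPM (n = 3).

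Gstz1, which isomerizes maleylacetoacetate, had 289, 533, 450 and 349 counts in the controls, against 658, 1655 and 547 in the Notch3-/- animals. Its level was 107 ± 9.32 CPM in control mice (n = 4) and 210 ± 125 CPM in Notch3-/- mice (n = 3). Mouse 3, with 103 CPM, lay inside the control range of 95.2 to 117 CPM, and mice 1 and 2 lay above it with 180 and 348 CPM. Fah, which catalyses the last step, had 145, 305, 259 and 177 counts in the controls, against 528, 1346 and 360 in the Notch3-/- animals. Its level was 58.0 ± 7.17 CPM (n = 4) and 165 ± 109 CPM (n = 3). All 3 Notch3-/- mice were above the control mice, mouse 3 with 68.1 CPM against a highest control value of 64.3 CPM. Gstz1 and Fah were the members with a mean of at least 10 CPM in control mice. Their excess over the control mean was 72.3 and 86.3 CPM in Notch3-/- mouse 1 and 241 and 225 CPM in mouse 2. Gstz1 shares 465 exon bases with Pomt2 and 156 with Gm6566, a gene without an entry in the counts table, both on the opposite strand. Pomt2 had 120, 147, 180 and 125 counts in the controls, against 127, 207 and 274 in the Notch3-/- animals, with its highest count in mouse 3. The strandedness of the counting is not given in the sources used here, so reads of these genes cannot be told apart in the shared bases. Psmd9 overlaps Hpd and Fh1 overlaps Kmo on the opposite strand with 0 shared exon bases.

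**Figure D1:**
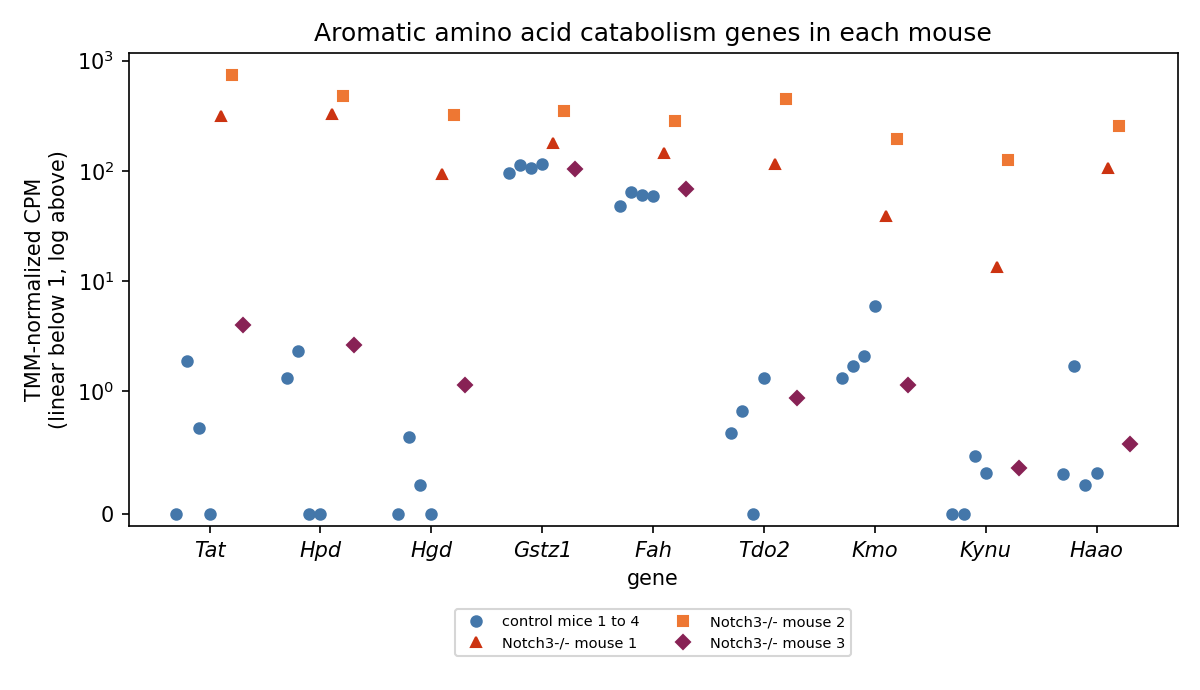
Level of each of the 9 members in each mouse, in TMM-normalized CPM on an axis that is linear below 1 and logarithmic above. Circles are the 4 control mice and the other symbols the 3 Notch3-/- mice. Notch3-/- mice 1 and 2 lie above every control mouse for 9 of 9 members, and mouse 3 lies near the control mice.

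In the kynurenine route, Tdo2, which opens the indole ring of tryptophan, had 2, 4, 0 and 4 counts in the controls, against 420, 2123 and 5 in the Notch3-/- animals. Kmo, which hydroxylates kynurenine, had 4, 8, 9 and 18 counts in the controls, against 143, 935 and 6 in the Notch3-/- animals. Mice 1 and 2 were above all control mice for both genes. Mouse 3 lay within the control range for Tdo2 and, at 1.13 CPM, below every control mouse for Kmo, so that the genotypes overlapped. The level of Tdo2 was 0.709 ± 0.553 CPM in control mice (n = 4) and 187 ± 232 CPM in Notch3-/- mice (n = 3). That of Kmo was 2.78 ± 2.18 CPM (n = 4) and 79.0 ± 104 CPM (n = 3).

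Kynu, which cleaves 3-hydroxykynurenine, had 0, 0, 2 and 1 counts in the controls, against 49, 597 and 2 in the Notch3-/- animals. Haao, which opens the ring of 3-hydroxyanthranilate, had 1, 8, 1 and 1 counts in the controls, against 390, 1218 and 3 in the Notch3-/- animals. Mouse 3 lay within the control range for both. The level of Haao was 0.646 ± 0.695 CPM in control mice (n = 4) and 121 ± 128 CPM in Notch3-/- mice (n = 3). That of Kynu was 0.201 ± 0.239 CPM (n = 4) and 46.4 ± 68.8 CPM (n = 3). With 3 counts in the control mice together, the pooled Kynu ratio of Notch3-/- to control was 237 with an exact 95% counting interval of 80.7 to 1152. Of the 648 Notch3-/- counts 597 came from mouse 2, and without that mouse the ratio was 28.6 (interval 9.23 to 143). For each member the Notch3-/- group held 2 high mice and 1 low mouse, which its SD reflects. In bulk tissue, more cells of a type and more RNA per cell cannot be told apart, nor can fewer cells and less RNA.

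The technical libraries repeated the distance of Notch3-/- mice 1 and 2 from the other mice, but not the place of mouse 3 above the control mice. For each of the 9 members, all 6 libraries of Notch3-/- mice 1 and 2 were above all 15 libraries of the other mice. As a ratio the narrowest margin was that of Gstz1, with at least 166 CPM against at most 143 CPM. For Tat the same values were 298 and 6.00 CPM, and for Kynu 10.1 and 1.09 CPM. Counts of Tat were present in 4 of 12 control libraries and in all 9 Notch3-/- libraries, and counts of Kynu in 2 and 7. The 3 libraries of Notch3-/- mouse 3 had 2, 3 and 16 Tat counts, 2, 4 and 8 Hpd counts and 1, 2 and 3 Hgd counts. The lowest of them lay under the highest control library for each of the 4 members with mouse 3 above every control mouse, for Tat with 1.67 against 3.43 CPM and for Fah with 56.5 against 93.1 CPM.

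**Figure D2:**
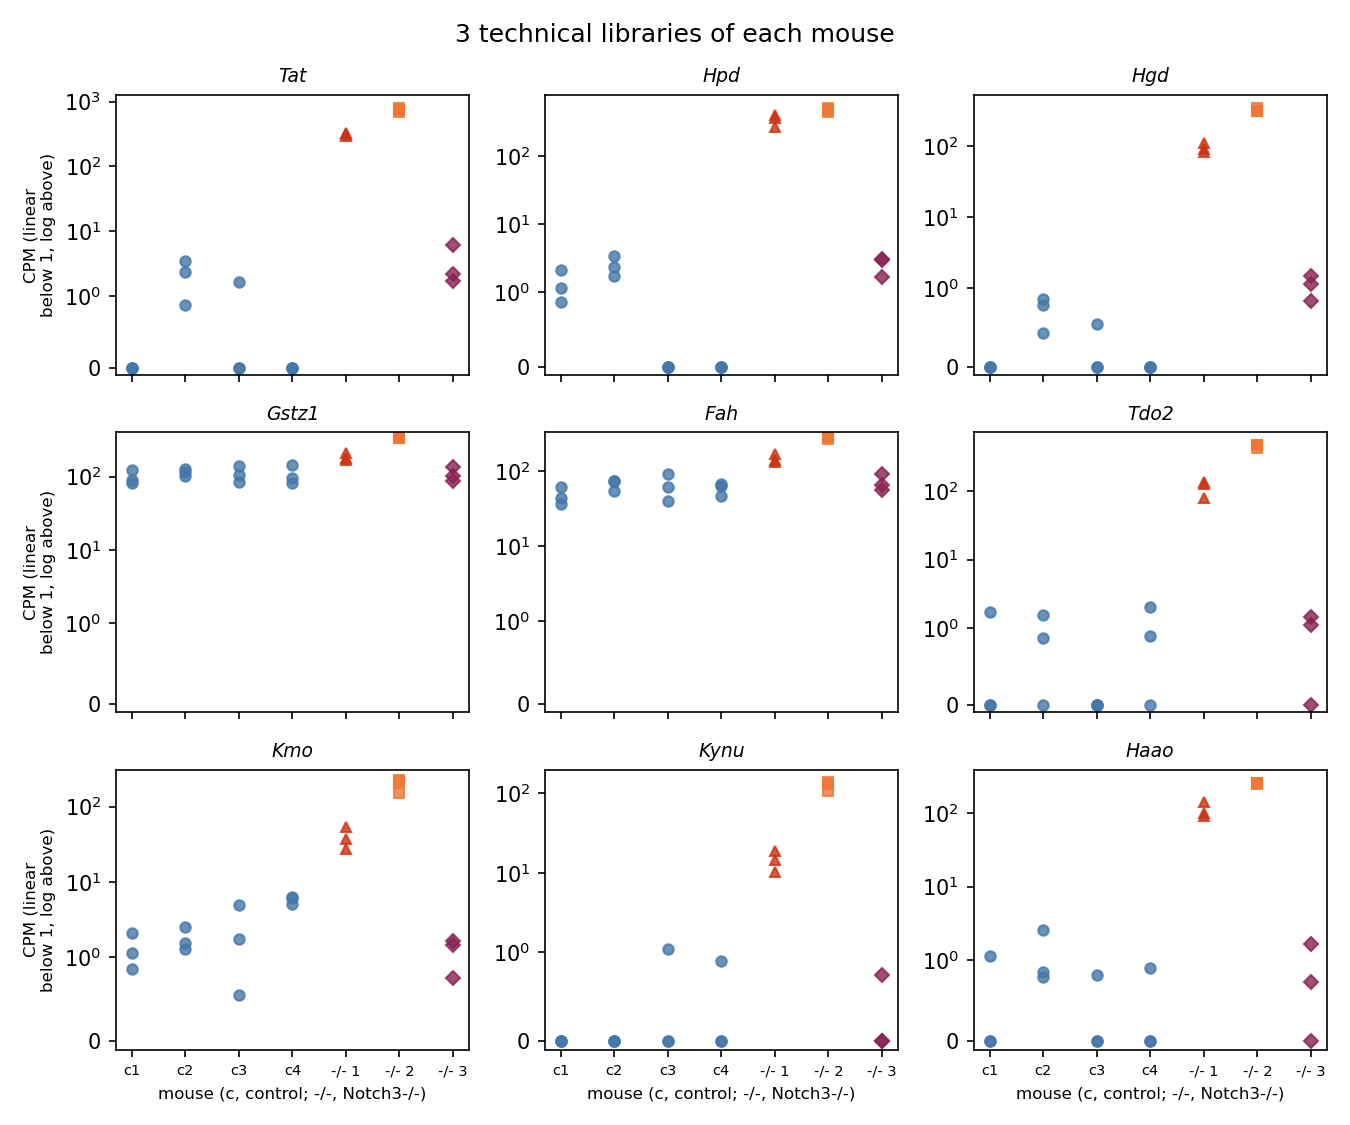
CPM of each member in each technical library, 3 points to a mouse, on axes that are linear below 1 and logarithmic above. The libraries of Notch3-/- mice 1 and 2 lie above those of the control mice and of mouse 3 in every panel.

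Per kb of annotated exon, Hpd was the most abundant member in Notch3-/- mouse 1, with 153 CPM per kb, followed by Tat with 130. The libraries of the pair overlapped in that mouse, 125 to 188 CPM per kb for Hpd and 124 to 134 for Tat. In Notch3-/- mouse 2 Tat came before Hpd, with 308 and 223 CPM per kb and no overlap between libraries. Fah, Hgd and Tdo2 followed there with 128, 122 and 115 CPM per kb, and each overlapped its neighbour over libraries. Gstz1, Haao, Kmo and Kynu came last with 68.4, 54.7, 41.6 and 20.4 CPM per kb. In control mice the order was another one, with Fah at 26.2 and Gstz1 at 21.1 CPM per kb and the other 7 members at or below 0.589. In Notch3-/- mouse 3 Fah and Gstz1 also led, with 30.7 and 20.3 CPM per kb, and Tat came next with 1.65. Exon length was taken over all annotated transcripts of a gene. It was longest for Kynu, Gstz1, Kmo and Haao (4681 to 6149 bases), so the order depends on it. In plain CPM Gstz1 lay above Hgd and Fah in Notch3-/- mouse 2, with 348, 319 and 283 CPM.

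Notch3-/- mouse 2 exceeded mouse 1 by a factor that differed between members. The ratio of mouse 2 to mouse 1 was 1.46 for Hpd (exact 95% interval 1.36 to 1.57, counting error only) and 9.38 for Kynu (upper bound 12.8). It was 2.36 for Tat, 1.94 for Gstz1 and 1.96 for Fah, and 3.41 for Hgd, 3.89 for Tdo2 and 5.03 for Kmo. The ratios are of whole levels. For Gstz1 and Fah these include a level also present in control mice (means of 107 and 58.0 CPM), so their ratios are not directly comparable with those of the other members. The intervals of Hpd and of Kynu did not overlap that of any other member. For the 20 hepatocyte markers described below the ratio ran from 1.10 (Alb) to 4.48 (Apob) with a median of 2.13, so that Kynu lay above that range and 7 members inside it. The interval of Kmo, 4.22 to 6.04, held the highest of these marker values. Such ratios compare 2 mice of a single genotype and carry no test.

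The genotypes were then set against each other by the quasi-likelihood test of edgeR over the 14324 genes that passed its expression filter, and genes with a false discovery rate (FDR) under 0.05 that differed by at least 1.5-fold were called. Of the members, 5 passed the filter (Tat, Hpd, Gstz1, Fah and Kmo) and 4 did not (Hgd, Tdo2, Kynu and Haao), because it requires enough counts in 3 mice or more. Tat and Hpd reached its limit only in the 3 Notch3-/- mice, Kmo in Notch3-/- mice 1 and 2 and control mouse 4, and Gstz1 and Fah in all 7 mice. None of the 5 was called, with 0 of 14324 genes called as higher (0%). All 5 had an unadjusted p under 0.05, but since Tat, Hpd and Kmo were tested only because of mice in which they are high, that count is not set against the share of all genes. Gstz1 and Fah had unadjusted p-values of 0.0140 and 0.00263, and 7.34% of all genes tested were higher at an unadjusted p under 0.05. The log2 fold change was 8.77 for Tat (SE 1.52, edgeR quasi-likelihood FDR 0.118 with Benjamini-Hochberg adjustment) and 1.51 for Fah (SE 0.38, FDR 0.183). For Gstz1 it was 0.97 (SE 0.32, edgeR quasi-likelihood FDR 0.332 with Benjamini-Hochberg adjustment), for Hpd 8.05 (SE 1.47, FDR 0.118) and for Kmo 4.88 (SE 1.21, FDR 0.183). The only gene called in that fit was Notch3, which was lower.

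The count of members called depended on the filter and on Notch3-/- mouse 3. With every gene that had at least 1 count in the same edgeR test, 8 of 9 members were called, all but Gstz1, where 2.18% of 28790 genes were called as higher. DESeq2, run on the same 28790 genes without that filter, also called 8 of 9, all but Fah, where 3.23% of the 17571 genes with an adjusted p were called as higher. Without Notch3-/- mouse 3, edgeR called 9 of 9. The log2 fold change was then 9.33 for Tat, 8.61 for Hpd, 5.46 for Kmo, 1.87 for Fah and 1.29 for Gstz1. The filter of that fit asks for 2 mice, and Notch3-/- mice 1 and 2 suffice for it. Tat, Hpd, Hgd, Tdo2, Kynu and Haao reached its limit over 7 mice in 0 control mice. The 9 are therefore not set against the 6.02% of 15008 genes called as higher. Mouse 3 was singled out by its levels, so the count of 9 describes mice 1 and 2 and is no test of the genotype. Without Notch3-/- mouse 1 and without mouse 2, edgeR with its filter called 0 members. Without mouse 2 the log2 fold change fell to 7.60 for Tat, 7.32 for Hpd, 2.86 for Kmo, 0.86 for Fah and 0.39 for Gstz1, and to 4.88 for Kynu in the fit of every gene. In these fits with the filter 5 and 4 members, some of them tested only because of mice in which they are high, had an unadjusted p under 0.05, and 7.32% and 4.29% of all genes were higher at that p. The edgeR fit of every gene, for which the members were counted in this way after the data were seen, called 8 members without mouse 1 and 8 without mouse 2, where 2.19% and 2.22% of all genes were called as higher. With each of the 7 mice left out it called 7 (without control mouse 2, all genes 1.49%) to 9 (without Notch3-/- mouse 3, all genes 5.07%). The fit of every gene takes more from the spread shared by all genes, with a prior of 10.65 degrees of freedom over 7 mice against 4.71 with the filter. Without mouse 2 the prior was 317 and without mouse 3 it was infinite, so those calls of the fit of every gene carry little weight. The median log2 fold change over the 9 members in the fit with every gene was 7.63, against -0.01 over all 28790 genes, and fitted values of members with few control counts depend on the prior count.

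Labels of control mice 1 and 2 start with X and those of the other 5 mice with k, a difference whose meaning is not given. Among the k-labelled mice alone 9 members passed the filter and edgeR called 0 of them, with 7 at an unadjusted p under 0.05 and 0 of 14872 genes called in all. The filter then asks for 2 mice and Notch3-/- mice 1 and 2 suffice for it, so the 7 are not set against the 5.01% of all genes that were higher at an unadjusted p under 0.05. The fit of every gene in the k-labelled mice, also run after the data were seen, called 8 of 9 members, all but Gstz1, where 2.16% of 27621 genes were called as higher, with a prior of 20.05 degrees of freedom. With the filter the log2 fold change in these mice was 1.45 for Fah and 0.91 for Gstz1. The X-labelled mice are all controls and gave no comparison. Summed over the 9 members, the level was 147, 186, 171 and 184 CPM in control mice and 1331, 3191 and 182 CPM in Notch3-/- mice. Mouse 3 lay inside the control range for this sum, and Gstz1 and Fah made up 172 CPM of its value. Without Gstz1 and Fah it had 10.8 CPM, above the highest control value of 9.06 CPM. The means of the sum over 9 members differed by 1396 CPM over all mice and by 2089 CPM without Notch3-/- mouse 3. They differed by 585 CPM without Notch3-/- mouse 2 and by 1391 CPM in the k-labelled mice.

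**Figure D3:**
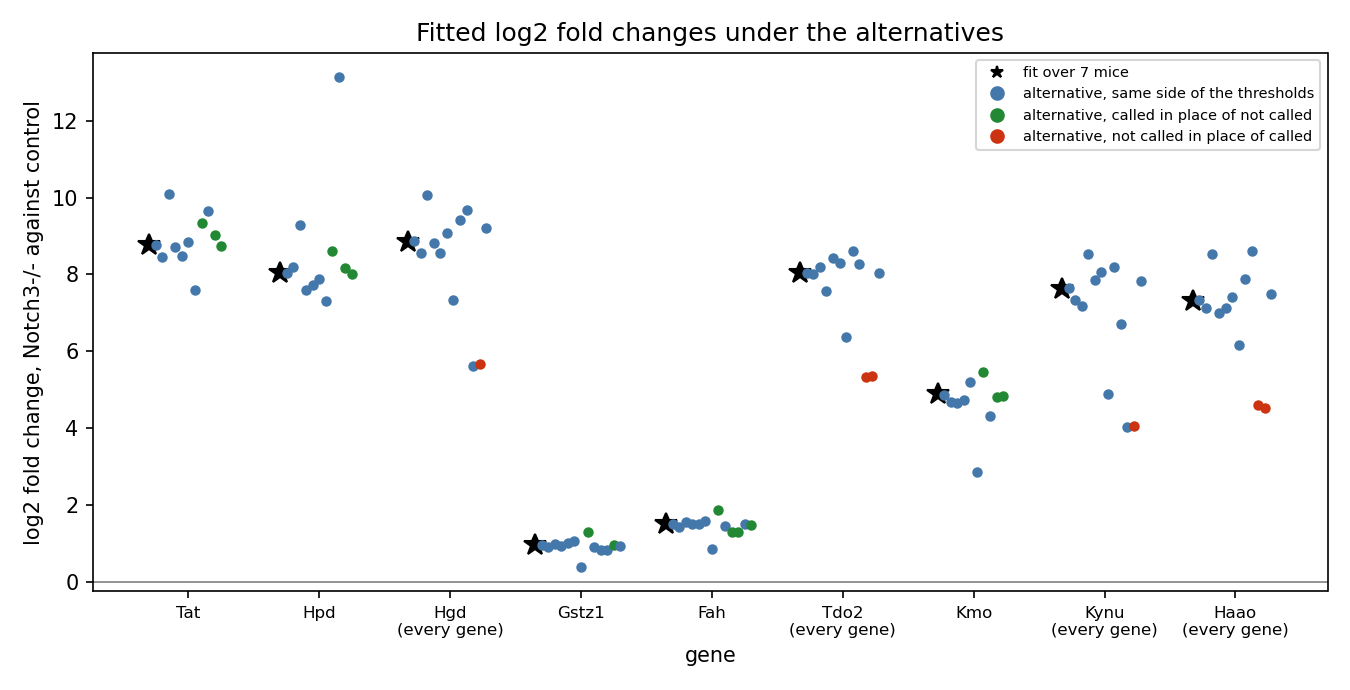
Fitted log2 fold change of each member (Notch3-/- against control), with a star for the fit over 7 mice and a point for each alternative. Members marked "every gene" did not pass the expression filter, and their star is the edgeR fit of every gene with a count. Colours show which alternatives changed whether the member was called.

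Other genes of the pathways were described from a list of 19. In the edgeR fit 13 of them passed the filter and 0 were called in either direction, while 6 were higher and 1 was lower at an unadjusted p under 0.05. Of the 6, Pcbd1 reached the limit of the filter in fewer than 3 control mice. The 1 lower gene, Slc7a5, reached it in 3 control mice and in 0 Notch3-/- mice. It was tested only because of mice in which it is high. These counts are therefore not set against the 7.34% and 3.05% of all genes tested. With every gene in the fit 8 of 19 were called as higher (all genes 2.18%) and 0 as lower, and with DESeq2 7 (all genes 3.23%) and 0. Without Notch3-/- mouse 3, 18 were tested and edgeR called 11 higher and 0 lower. The filter then asks for 2 mice. Ido2, Aadat, Acmsd, Qprt and Aldh8a1 reached its limit over 7 mice only in Notch3-/- mice 1 and 2. The 11 are therefore not set against the 6.02% of all genes called as higher. Their median log2 fold change in the fit with every gene was 0.77, against -0.01 over all genes. Notch3-/- mouse 1 lay above every control mouse for 13 of the 19, mouse 2 for 15 and mouse 3 for 2, and over the 28790 genes with a count these shares were 21.4%, 26.0% and 17.5%.

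Qprt, which makes a precursor of NAD at the end of the kynurenine route, had 3, 4, 3 and 1 counts in the controls, against 122, 621 and 5 in the Notch3-/- animals. Ido2 had 0, 1, 0 and 0 counts in the controls, against 73, 184 and 0 in the Notch3-/- animals. Here mice 1 and 2 were again the high ones, and Ido2 was at 0 in mouse 3. Ido1, the tryptophan dioxygenase of immune and other cells outside the liver, had 6, 0, 3 and 7 counts in the controls, against 3, 4 and 4 in the Notch3-/- animals, and the genotypes overlapped. Slc7a5, an amino acid transporter, had 7, 37, 16 and 12 counts in the controls, against 4, 9 and 8 in the Notch3-/- animals. In CPM all 3 Notch3-/- mice were below every control mouse. The log2 fold change was -1.57 (SE 0.49, edgeR quasi-likelihood FDR 0.293 with Benjamini-Hochberg adjustment, and FDR 0.235 without mouse 3). Over 7 mice Slc7a5 reached the limit of the filter only in control mice 2, 3 and 4. Its test was thus selected by the group in which it is high. Got1 and Got2, aminotransferases of the malate-aspartate shuttle and abundant in heart, were high in all mice. Got1 had 908 ± 66.2 CPM in control mice (n = 4) and 799 ± 102 CPM in Notch3-/- mice (n = 3), and the genotypes overlapped.

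**Figure D4:**
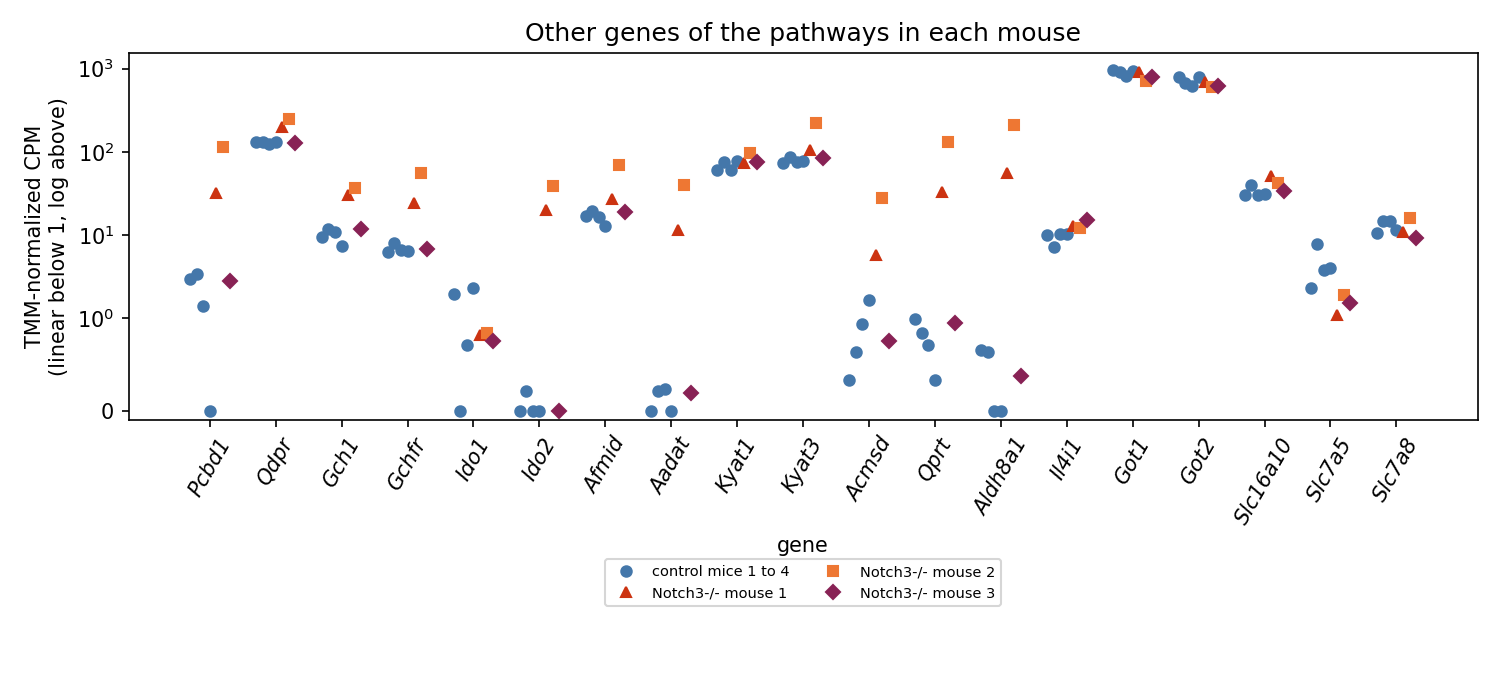
Level of the other 19 pathway genes in each mouse, in TMM-normalized CPM on an axis that is linear below 1 and logarithmic above. Some genes at low level in control mice, such as Qprt and Aldh8a1, are high in Notch3-/- mice 1 and 2. Got1, Got2 and Ido1 overlap between genotypes, and Slc7a5 lies below every control mouse in all 3 Notch3-/- mice.

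Hepatocyte markers were high in the same mice as the members. For 20 of 20 hepatocyte markers Notch3-/- mice 1 and 2 lay above every control mouse, and mouse 3 did so for 9. Their summed level was 117, 235, 66.8 and 98.5 CPM in control mice and 7733, 14220 and 215 CPM in Notch3-/- mice. Alb, the most abundant in the Notch3-/- mice and control mouse 2, had 68, 385, 10 and 32 counts in the controls, against 6240, 8913 and 354 in the Notch3-/- animals. Mice 1 and 2 were again the high ones, and control mouse 2 led its group for Alb as it did for Tat, Hpd, Hgd and Haao. Mouse 3, at 66.9 CPM, lay below control mouse 2, at 81.1 CPM, for Alb, and also for the sum. Hnf4a, a transcription factor of hepatocytes, had 0, 1, 0 and 0 counts and 130, 693 and 2 counts, and 0 of the 20 markers were at 0 in all mice. Of the 20, Alb and Vtn had a mean of at least 10 CPM in control mice. With the filter 18 of the 20 were tested by edgeR and 0 were called. All 18 had an unadjusted p under 0.05, but 14 of them reached the limit of the filter in fewer than 3 control mice and were tested because of the Notch3-/- mice, so that count too is not set against the 7.34% of all genes. DESeq2 called 20 (all genes with an adjusted p 3.23%). Without mouse 3 edgeR also called 20, but its filter then asks for 2 mice. Markers such as Apob and Hnf4a reached the limit over 7 mice in 0 control mice. That count is therefore not set against the 6.02% of all genes called as higher. With every gene in the edgeR fit 20 of 20 were called as higher (all genes 2.18%), with a median log2 fold change of 7.01. The part of these markers in the results for the members was not tested.

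The 7 members other than Gstz1 and Fah summed to 3.62, 9.06, 3.76 and 8.02 CPM in control mice and 1006, 2560 and 10.8 CPM in Notch3-/- mice. The hepatocyte marker sum holds none of them. As a ratio to that sum in the same mouse the values were 13.0%, 18.0% and 5.01% across the Notch3-/- group and 3.10%, 3.85%, 5.63% and 8.14% across the controls. Gstz1 in control mice equalled 47.8% to 158% of that sum, and in Notch3-/- mice 1 and 2 it equalled 2.33% and 2.45%.

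**Figure D5:**
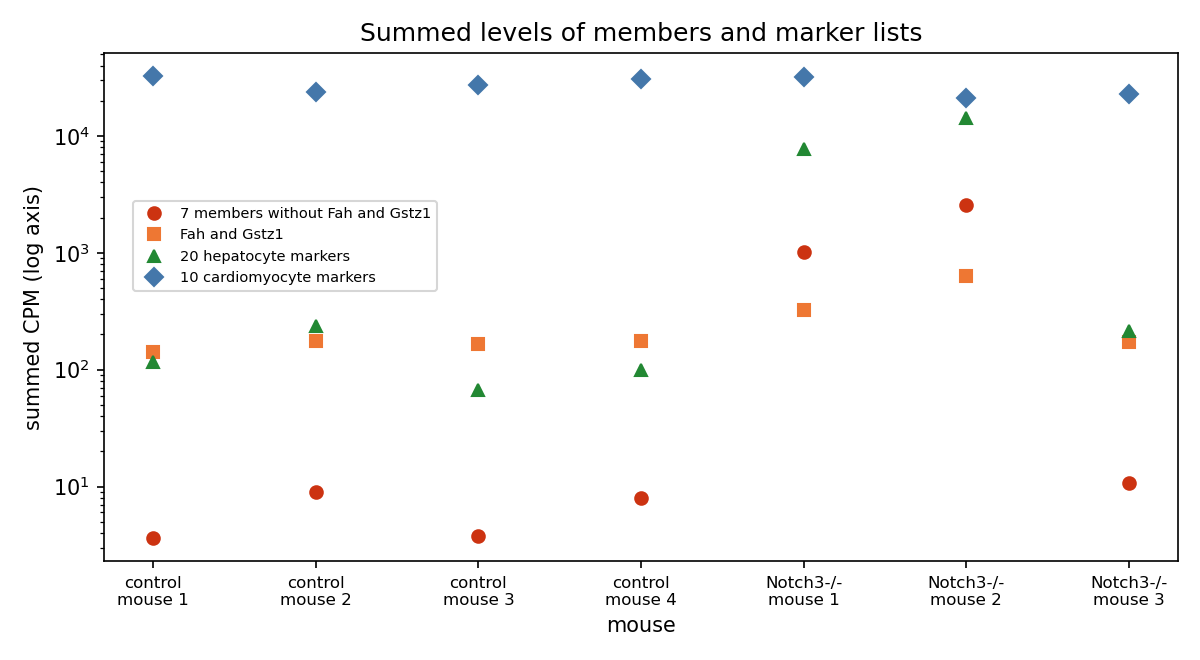
Summed CPM per mouse, on a logarithmic axis, of 7 members, of Fah with Gstz1, of 20 hepatocyte markers and of 10 cardiomyocyte markers. The 7 members and the hepatocyte markers are highest in Notch3-/- mice 1 and 2, and the cardiomyocyte markers lie between 21228 and 32483 CPM in all mice.

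Cardiomyocyte markers, which define the labelled tissue, were present in every mouse. The 10 genes summed to 32483, 23565, 27070 and 30887 CPM in control mice and 32212, 21228 and 22722 CPM in Notch3-/- mice, with Ttn the most abundant and a median log2 fold change of -0.24 (-0.19 without mouse 3). The genotypes overlapped, and edgeR called 0 of the 10 with and without mouse 3, as did DESeq2, with 0 at an unadjusted p under 0.05 over 7 mice. Kidney tubule markers summed to between 10.9 and 12.7 CPM in control mice and to 19.9, 13.3 and 11.7 CPM in Notch3-/- mice. Of the 14, Slc34a1, Slc22a6 and Umod were at 0 in all mice, Cubn was the most abundant, and 0 were called by edgeR, with or without the filter, by edgeR with the filter and without mouse 3, or by DESeq2. Pancreatic acinar markers summed to at most 4.94 CPM in any mouse, Cela1 being the most abundant, and Prss2 and Ctrb1 of the 6 were at 0 in all mice.

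Macrophage markers summed to between 482 and 609 CPM in control mice and 636, 624 and 644 CPM in Notch3-/- mice, above the control mice in all 3. Lyz2 was the most abundant of the 13, and 0 were at 0 in all mice. Clec4f, a marker of the resident macrophages of the liver, had 0, 6, 7 and 2 counts in the controls, against 83, 128 and 10 in the Notch3-/- animals. It was the 1 macrophage marker called with every gene in the edgeR fit, and by DESeq2, and is named because of that value. With the filter edgeR called 0 of the 11 tested, 4 being higher at an unadjusted p under 0.05. Cd5l, 1 of the 4, is also named because of its value. It had 0, 0, 0 and 12 counts in the controls, against 74, 145 and 1 in the Notch3-/- animals. Cd5l was tested only because of mice in which it is high, so the 4 are not set against the 7.34% of all genes. Without mouse 3 edgeR called 2, Clec4f and Cd5l. Clec4f did not pass the filter over 7 mice and entered where 2 mice suffice. The 2 are therefore not set against the 6.02% of all genes called as higher. For Clec4f and Cd5l mice 1 and 2 were the high ones, as for the members. The same held for Marco, with 0, 1, 0 and 0 counts in the controls, against 6, 21 and 0 in the Notch3-/- animals. Timd4 and Vsig4 were above every control mouse in all 3 Notch3-/- mice. Timd4 was highest in mouse 3, with 8, 10, 8 and 1 counts against 11, 18 and 29. Vsig4 had 15, 10, 16 and 11 counts against 33, 52 and 34. The sum over the 13 markers was instead highest in mouse 3, with 644 CPM. The part of macrophages in the results was not tested.

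The genes outside the members with the profile closest to the mean of the 9 members over the 7 mice were Mbl1, Agxt2, Igfbp2, AI182371 and Gm4788. Their root-mean-square difference from it was 0.13, 0.20, 0.20, 0.20 and 0.20 on the log2 CPM scale, among 16627 genes with a mean of at least 1 CPM. Mbl1 had 0, 1, 0 and 0 counts in the controls, against 61, 287 and 2 in the Notch3-/- animals. The members themselves lay farther from their own mean, from 0.64 (Kynu) to 2.16 (Gstz1).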

How the data were processed

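The authors deposited a table of counts, whole numbers of reads per Ensembl gene that were not normalized, for 21 libraries of polyA RNA made by reverse transcription, 22 cycles of PCR and Tn5 fragmentation and sequenced to 51 bases. The submitters' processing notes name CASAVA and mm10. The counting program and the treatment of duplicate reads are not given in the sources used here. The table held 46609 lines, of which 92 were spike-in sequences with 0.000117% of all counts, and these were left out. Symbols were found for 46005 of 46517 identifiers, and all entered the analysis. Exon lengths and overlaps came from GENCODE vM21 (GRCm38).

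Counts of the 3 technical libraries were summed per mouse, giving 3046326 to 5167869 counts, and tested in R 4.3.3 with edgeR 4.0.16 (filterByExpr, TMM factors, quasi-likelihood F-test, genotype as the only term, Benjamini-Hochberg adjustment). DESeq2 1.42.0 and limma 3.58.1 were alternatives, as were RLE factors, no expression filter, each mouse left out, the k-labelled mice, and no fold threshold. Log2 CPM used a prior count of 2. Reads carry no molecular identifiers, so exact binomial intervals cover counting error only. The members, gene lists and tests were chosen with earlier results of these data known. Named genes are the members, Notch3, the other pathway genes, Alb and the most abundant gene of each marker list, genes overlapping a member, and the 5 genes with the smallest root-mean-square difference from the members' mean profile. Hnf4a, Vtn, Apob, Clec4f, Cd5l, Marco, Timd4, Vsig4 and the markers at 0 in all mice fall outside this rule and were named after their values were seen. Of the other pathway genes, 1 is not reported here and was left out of the list and its counts. The fits were tested on simulated data with known changes. In those data the fits on counts per mouse kept to the FDR threshold. The limma-voom fits on libraries did not: they called more unchanged genes than it allows. The measured data have few control counts for most members, and Notch3-/- mice unlike each other. Whether the fits on counts per mouse keep to the threshold there was not tested.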

Additional observations from a re-analysis of the deposited data

Results flagged for a closer look

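Among the 4 control mice, the highest or lowest value stood far from the other values for 11 of 50 genes and sums examined. In 6 of the 11 a single control mouse had any counts, so the gap is the whole range whatever the counts, and the chance rate of about 1 in 20 does not apply. Of the other 44 genes and sums it was 5. Kmo was highest in control mouse 4 with 6.01 CPM (18 counts). Control mouse 2 was highest for Haao with 1.69 CPM (8 counts), for Slc16a10 with 39.6 CPM, and for Ido2, Mbl1, Agxt2, Igfbp2 and Gm4788 with 0.211 CPM each (1 count) and AI182371 with 0.421 CPM (2 counts), where the other control mice were at 0 for the last 6 genes. It was lowest for Il4i1 with 7.17 CPM, and control mouse 3 was lowest for Qdpr with 123 CPM. Groups of 3 mice were not examined in this way.

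The spike-in sequences, which enter no comparison, had 18 counts in Notch3-/- mouse 1, all in 1 library, against 3, 2, 4 and 4 counts in the controls, 1 in Notch3-/- mouse 2 and 2 in mouse 3.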

How the results depend on the processing

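The count of members called was 0 in the edgeR fit over 7 mice and stayed 0 with RLE factors, with no fold threshold and in the k-labelled mice. With each mouse left out it ranged from 0 to 9, and the 9 came without Notch3-/- mouse 3, where the filter asks for 2 mice and 9 members are tested. It was 8 with DESeq2, run without that filter, and 8 with every gene with a count in edgeR, and the sets differed, since DESeq2 left out Fah and edgeR Gstz1. The count of genes called was 1 (Notch3), ranged from 1 to 936 with each mouse left out, and was 0 in the k-labelled mice (949 at an unadjusted p under 0.05), 593 with DESeq2 and 639 with every gene. The causes of these differences were not tested.

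Replicate numbers in the labels name technical libraries of a mouse and do not pair mice. Limma-voom on 21 libraries, with the mouse as a random effect, called 1 of 2 members tested (Fah) and 65 genes, and with the technical replicate as a block 1 member and 62 genes. In simulated data these library-level fits called more unchanged genes than the FDR threshold allows, so no result is drawn from them.

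Members above every control mouse numbered 4 with TMM, raw and RLE-scaled CPM and from 4 to 9 with each mouse left out. The difference in summed CPM was 1396, and 585 to 2089 with each mouse left out. Of 94 alternative fits of single members other than limma-voom, 0 changed sign, 13 newly called the member and 0 no longer called it. Of the 12 by limma-voom, 2 newly called it (Fah) and 6 no longer did (Hgd, Tdo2, Kynu and Haao). In the k-labelled mice both controls were at 0 for Hpd, so its fitted fold is no bound. With every gene with a count, 7 to 9 members were called with each mouse left out and 8 in the k-labelled mice, counts that were chosen after seeing the data. In the planned fits of single members, adjusted p-values of Hgd, Tdo2, Kynu and Haao were 0.00526 to 0.0272 without a control mouse or Notch3-/- mouse 1. Without Notch3-/- mouse 2 or 3, where the prior was 317 or infinite degrees of freedom, they were implausibly small and are not given. At this depth, 0 to 8 counts in control mice do not separate Notch3-/- mouse 3 from control mice for Tdo2, Kynu and Haao.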
